A study of Caenorhabditis elegans with 2 samples.

Results

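Head-to-head promoters are stretches of DNA from which neighbouring genes are read outwards in opposite directions. They were taken here as pairs of adjacent protein-coding genes on opposite strands, with the minus-strand gene to the left and the annotated starts at most 1000 bp apart. Each region ran from start to start with 200 bp added at each end. Among the 19967 consecutive pairs of protein-coding genes on chromosomes I to V and X of Caenorhabditis elegans, 1697 met this rule, and they held 3394 of the 19973 protein-coding genes (17%), with no gene in more than 1 pair. Binding of LET-526 in these regions was read from lists of peaks made by chromatin immunoprecipitation with sequencing (ChIP-seq). The material was whole young adults, 60 hours old, of strain RW12306, whose let-526 gene carries an inserted tag, let-526::TY1::EGFP::3xFLAG, made with CRISPR. The larvae had been synchronised by bleaching and starvation in the first stage, and anti-GFP antibody was used on sonicated chromatin. Both of the 2 samples carry the tag and form 1 group, labelled biological replicates 1 and 2, and no untagged control sample was analysed here. Only peaks, without reads, were at hand, and library depth is therefore unknown. In whole worms, binding in fewer cells and weaker binding in each cell cannot be told apart.

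LET-526 is the worm ortholog of the mammalian ARID1 proteins, large subunits of the SWI/SNF (BAF) complex, which uses ATP to slide or evict nucleosomes and so opens promoters and enhancers. A head-to-head promoter has a start at each end, each with its own core promoter, and the nucleosome-depleted stretch between them can serve both genes. In the compact worm genome, neighbouring genes may also lie in operons, in which genes on the same strand are transcribed from a shared upstream promoter. The transcripts of many worm genes are trans-spliced, so that an annotated start can lie downstream of the place where transcription begins.

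The sequences under 6 of the strongest or most instructive summits are shown first. They are the 3 strongest regions, the strongest region with a chromatin gene (set-16), a pair of genes for partner chaperonins of the mitochondrion, and the bound pair with splicing regulators at both ends. Each is the plus strand of the RefSeq sequence of WBcel235, which is the ce11 assembly, from 100 bases before the summit to 99 after it, ended earlier where an annotated start was reached. Capitals mark matches on either strand to any of 9 motifs. These were the TATA-box core TATAAA, the word CTGCGTC, the GC-rich word GGGCGG, the E2F-type word TTCCCGC, the E-box CACGTG, the GATA-factor word GATAAG, the GA repeat GAGAGA, the run of T written TTTTTT and the inverted repeat TTCNNGAA found in sites of heat shock factor. Matches to different motifs may overlap, and longer runs of T hold several matches to TTTTTT. The windows are, in order, chrIII:10759158-10759306, chrII:11759373-11759572, chrIV:4749964-4750163, chrIII:13643661-13643860, chrIII:1619023-1619222 and chrII:11453147-11453346.
K01G5.10/tasp-1: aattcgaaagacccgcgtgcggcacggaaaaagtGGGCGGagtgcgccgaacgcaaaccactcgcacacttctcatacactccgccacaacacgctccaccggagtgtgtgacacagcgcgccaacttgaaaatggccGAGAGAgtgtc
F44E5.4/F44E5.5: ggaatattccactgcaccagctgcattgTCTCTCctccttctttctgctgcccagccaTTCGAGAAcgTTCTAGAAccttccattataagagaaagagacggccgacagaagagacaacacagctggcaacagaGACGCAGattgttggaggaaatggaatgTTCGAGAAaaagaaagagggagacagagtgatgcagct
rpl-20/Y17G9B.5: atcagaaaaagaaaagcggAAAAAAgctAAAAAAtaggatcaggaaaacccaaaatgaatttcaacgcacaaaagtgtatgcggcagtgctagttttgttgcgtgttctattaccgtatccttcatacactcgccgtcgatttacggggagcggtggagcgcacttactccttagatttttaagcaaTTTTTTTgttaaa
drr-2/set-16: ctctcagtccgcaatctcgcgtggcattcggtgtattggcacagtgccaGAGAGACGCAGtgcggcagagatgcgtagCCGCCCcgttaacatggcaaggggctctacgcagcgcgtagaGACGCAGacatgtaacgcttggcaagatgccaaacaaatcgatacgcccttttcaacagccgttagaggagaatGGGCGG
Y22D7AL.10/hsp-60: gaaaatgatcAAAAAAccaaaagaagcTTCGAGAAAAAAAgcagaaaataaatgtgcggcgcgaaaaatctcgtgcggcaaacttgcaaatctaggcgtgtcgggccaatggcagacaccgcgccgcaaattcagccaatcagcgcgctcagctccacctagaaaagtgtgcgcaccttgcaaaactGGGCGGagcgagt
rsp-2/rsp-1: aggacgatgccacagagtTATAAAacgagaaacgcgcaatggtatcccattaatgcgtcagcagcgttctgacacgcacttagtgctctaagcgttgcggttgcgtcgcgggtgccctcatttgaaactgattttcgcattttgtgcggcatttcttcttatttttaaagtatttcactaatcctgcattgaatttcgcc
The window between the Hsp70-type genes F44E5.4 and F44E5.5 held 3 matches to TTCNNGAA, and that beside hsp-60 held 1. The window at drr-2/set-16 held 2 matches each to CTGCGTC and GGGCGG. The window at rpl-20/Y17G9B.5 matched TTTTTT alone of the motifs searched, and that at rsp-2/rsp-1 matched TATAAA alone.

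A head-to-head region held a LET-526 summit about 4 times as often as a gap between genes on the same strand. In the optimal list, the authors' thresholded list from both replicates, 129 of 1200 summits (10.8%) lay in head-to-head regions and marked 127 of the 1697 as bound. That is 7.48% (95% exact Clopper-Pearson interval 6.28 to 8.84, which covers counting error over regions only, as do all intervals on shares given here). Tandem gaps, between neighbours on the same strand at most 1000 bp apart and widened by the same 200 bp, contain 1 start, and 106 of 5464 were bound, or 1.94% (1.59 to 2.34). Convergent gaps, between neighbours that point at each other, contain no start, and 30 of 1772 were bound, or 1.69% (1.15 to 2.41). The head-to-head share was 3.86 times the tandem share and 4.43 times the convergent one. The latter ratio was 7.29 without regions that hold a small RNA gene, and ran from 3.61 to 7.29 over the thresholded lists and settings tried. Counted by annotated start, bound regions came to 3.74 per 100 starts in head-to-head regions and 1.94 in tandem gaps. A downstream gene of an operon may have no promoter of its own, and tandem gaps inside operons were not left out. The contrast is therefore not one of promoter against promoter, and the part of operons in it was not tested.

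Head-to-head regions had the highest share in each replicate by itself, while tandem and convergent gaps changed places in replicate 2. In the thresholded list of replicate 1, which holds 585 peaks, 77 head-to-head regions were bound (4.54%, 3.60 to 5.64), beside 1.01% of tandem gaps and 0.790% of convergent gaps. In that of replicate 2, which holds 421 peaks, 52 were bound (3.06%, 2.30 to 4.0), beside 0.805% and 0.847%. In the conservative list, made from peaks that repeat between the replicates, 122 were bound (7.19%). The head-to-head intervals lay above the tandem and convergent intervals in both replicates. Per length, head-to-head regions held 8.51 summits per 100 kb (exact Poisson interval 7.10 to 10.1), tandem gaps 2.40 (1.96 to 2.90), convergent gaps 2.29 (1.55 to 3.24) and the whole genome 1.20. In a ranked list of 81275 peaks with no threshold, chosen after the data were seen, the shares were 61.5% of head-to-head regions, 52.9% of tandem gaps and 48.8% of convergent gaps, so that the ratio to tandem gaps was 1.16. A list this dense often places a peak in a region by density alone, which draws the shares of all arrangements together. This ratio therefore cannot show whether the contrast was smaller among peaks below the threshold.

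**Figure D1:**
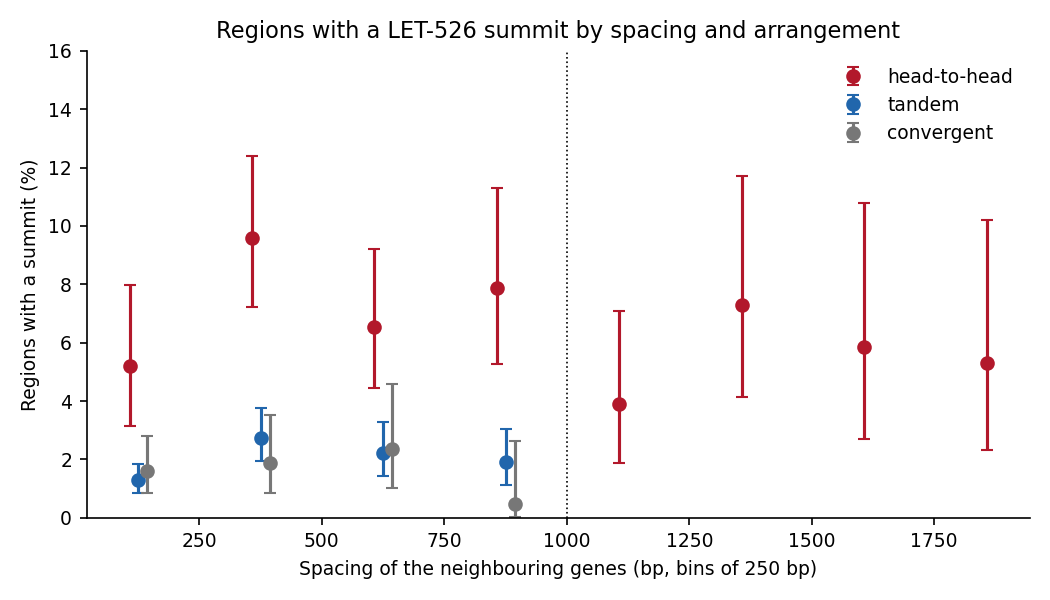
Percentage of regions that held a summit of the optimal list, by distance between the annotated starts (head-to-head, to 2000 bp) or between the gene bodies (tandem and convergent, to 1000 bp), in bins of 250 bp. Points are shares, bars are exact 95% intervals over regions, and the dotted line marks the limit of 1000 bp. Head-to-head regions lie above both other arrangements in each of the first 4 bins, with the highest share, 9.60%, from 251 to 500 bp.

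The bound share was high at every spacing within the limit. With starts at most 250 bp apart, 19 of 366 regions were bound (5.19%, 3.15 to 7.99). The share was 9.60% (51 of 531, 7.23 to 12.4) from 251 to 500 bp, 6.55% (30 of 458, 4.46 to 9.22) from 501 to 750 bp and 7.89% (27 of 342, 5.27 to 11.3) from 751 to 1000 bp. These intervals overlap, so no trend with spacing could be read from them. In tandem gaps of the same 4 sizes the shares were 1.28%, 2.75%, 2.23% and 1.91%. Beyond the limit, 10 of 256 pairs were bound (3.91%, 1.89 to 7.07) with starts up to 1250 bp apart, and then 7.28%, 5.84% and 5.30% in the next 3 bins up to 2000 bp. The limit of 1000 bp is therefore a convention and not a point at which binding stopped. Pairs with starts over 1000 and up to 5000 bp apart were bound at 6.33% (107 of 1690, 5.22 to 7.60), but over 4756 kb and not 1516 kb, so that they held 2.61 summits per 100 kb. The closest starts of a bound pair, F25H9.6 and F25H9.7, named after the values were seen, were 15 bp apart.

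Head-to-head regions were bound on each chromosome, at 9.21% on I (29 of 315), 7.72% on II (24 of 311), 9.61% on III (27 of 281), 7.02% on IV (21 of 299) and 5.57% on V (23 of 413). On X, where head-to-head pairs are few, 3 of 78 were bound (3.85%, 0.800 to 10.8), against 7.66% (124 of 1619, 6.41 to 9.06) over all autosomes. The interval for X holds the autosomal share, so no difference was detectable from 78 pairs. On each of the 6 chromosomes the head-to-head share was above the tandem share, which ran from 1.47% on V to 2.74% on I.

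Peaks in head-to-head regions also stood high in the ranking. Their signal, which is the peak caller's own value as deposited and can be compared within a list only, had a median of 103 (quartiles 89.7 and 136, range 4.91 to 589, n = 129). It was above the median of the whole list, 92.3, for 90 of the 129 (69.8%, 61.1 to 77.5). Of the 393 summits in other promoter windows, reaching 1000 bp up and 200 bp down from a start, outside these regions, 215 were above it (54.7%, 49.6 to 59.7), with a median of 94.9. Of the 678 summits elsewhere, 43.5% (39.7 to 47.3) were above it, with a median of 88.2. Of the top 100 peaks, 20 belonged to head-to-head regions, or 15.5% (9.73 to 22.9) of the head-to-head summits, beside 7.47% (5.97 to 9.21) of all others. The strongest peak of the whole list was a head-to-head one. The distance between the starts made little difference to the signal, with medians of 103, 104, 98.8 and 105 in the 4 bins from the closest to the widest pairs.

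**Figure D2:**
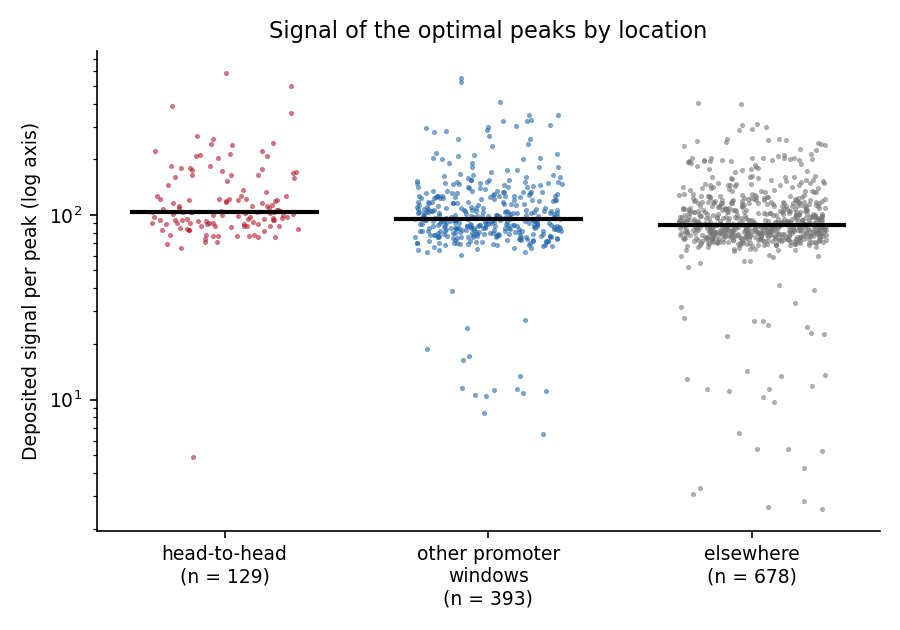
Deposited signal of the peaks of the optimal list on a log axis, for the 129 summits in head-to-head regions, 393 in other promoter windows and 678 elsewhere. Points are peaks and horizontal lines are medians, at 103, 94.9 and 88.2. The head-to-head peaks reach the highest value, 589, and share most of their range with the others.

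Both replicates gave a value for nearly all of these peaks. All 129 overlapped a ranked peak of replicate 1, with a median signal of 62.5, and 127 overlapped one of replicate 2, with a median of 45.9. Over the 127 the replicates' signals had a Spearman correlation of 0.55 and a Pearson correlation of 0.73 between log10 values, beside 0.33 and 0.47 over 1043 other peaks. These are descriptions across peaks of the same pair of libraries. Replicate 1 gave the higher value at 105 of the 127, with a median ratio of 1.32 (range 0.681 to 3.91), and at 743 of the 1043 others. The signals come from separate lists whose scales were not matched, so the ratio is not read as a difference in binding.

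By the thresholded lists, 41 of the 129 peaks (31.8%, 23.9 to 40.6) were called in both replicates, 34 in replicate 1 alone, 7 in replicate 2 alone and 47 (36.4%) in neither. The last group passed in the optimal list and not in either replicate's own. All of the 32 strongest head-to-head peaks were called in both replicates, and those that did not repeat ranked below them. Of the other 1071 summits, 232 (21.7%, 19.2 to 24.3) were called in both. In the conservative list, 117 of the 129 peaks (90.7%, 84.3 to 95.1) had a peak with the same start and end, beside 73.8% (71.0 to 76.4) of the others. A peak whose edges differed between the lists was not counted here, even if the peaks overlapped. Peak widths give little information, since 116 of the 129 peaks had the same width of 270 bp.

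**Figure D3:**
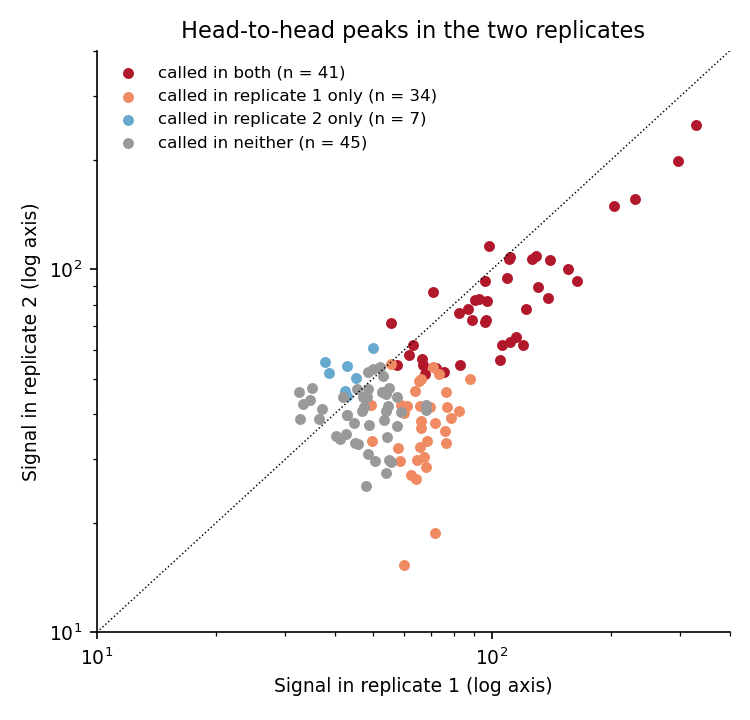
Signal of each head-to-head peak in replicate 1 and in replicate 2, both on log axes, for the 127 peaks with a value in both, coloured by the replicates whose thresholded list called the peak, with a dotted line at equal values. The points rise together, with a Spearman correlation of 0.55, and the strongest peaks were called in both replicates.

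Summits sat in the space between the starts. Of the 129, 111 lay there (86.0%, 78.8 to 91.5), although this space makes up 55.7% of the bases of the bound regions. Another 8 lay up to 200 bp inside the minus-strand gene and 10 up to 200 bp inside the plus-strand gene. The median summit was 130 bp upstream of the nearer start (quartiles 39 and 203), 188 bp from the nearer start codon and 97.0 bp from the midpoint of the region. Within 200 bp of at least 1 start lay 96 of the 129 (74.4%), and within 200 bp of both lay 27 (20.9%). As the starts moved apart, the summit moved away from the midpoint with them, by a median of 47.0 bp in pairs at most 250 bp apart, 62.5 and 128 bp in the next 2 bins and 204 bp in the widest. The distance to the nearer start grew as well, from a median of 44.0 bp to 128, 175 and 209.5 bp. Both distances grow with spacing even for summits spread evenly between the starts, so this trend does not show a preferred place.

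The plus-strand start was the nearer one for 83 of the 129 summits (64.3%, 55.4 to 72.6). With the space between the starts cut into 5 equal stretches, the 111 summits there numbered 12, 14, 26, 43 and 16 from the minus-strand to the plus-strand start. The median summit lay 37.0 bp to the right of the midpoint, and the quartiles were 48.5 bp to its left and 127.5 bp to its right. By arrangement alone left and right are equivalent here, since each region has a gene of each strand. The median offset was 82.5 bp over the 59 summits of pairs with starts over 500 bp apart and 27.8 bp over the 70 summits of closer pairs. A check against features whose direction is known was made at summits near 1 tRNA gene. There the summit lay 17.5 bp to the left of the middle of the gene on the plus strand (n = 59) and 27.5 bp to the right on the minus strand (n = 59). The median shift was thus to opposite sides on the 2 strands, and the larger shift was to the right. In tandem gaps the median summit was 169.5 bp upstream of plus-strand starts (n = 56) and 219.0 bp upstream of minus-strand ones (n = 50), which is to the left and to the right of the start respectively. Here too the larger distance was to the right, so a lean to the right was not shown to be particular to head-to-head regions. Whether these distances differ beyond their spread, and what gives the offset in head-to-head regions, was not tested.

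**Figure D4:**
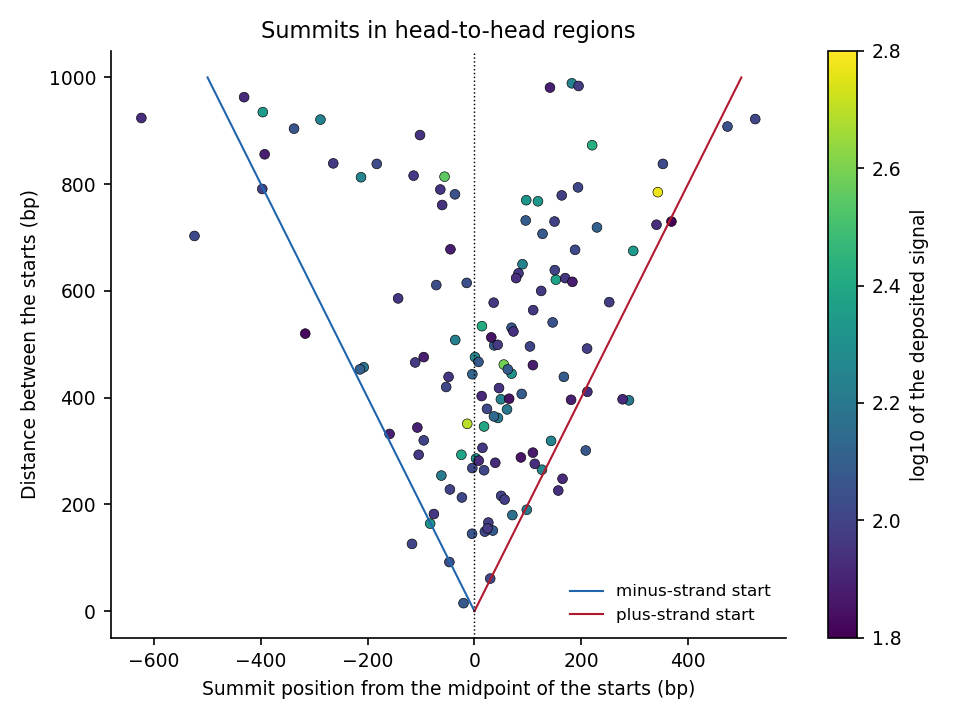
Position of each head-to-head summit relative to the midpoint between the starts (horizontal axis, bp, minus-strand gene to the left) against the distance between the starts (vertical axis, bp). Slanted lines mark the starts, the dotted line marks the midpoint, and colour gives log10 of the signal, with the peak of 4.91 drawn at the low end of the scale. Most points, 111 of 129, fall between the lines, and 83 are nearer to the plus-strand start.

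Of the bound regions, 125 held 1 summit, 2 held a pair of summits and 0 held more. In ecps-1/atx-2, whose starts are 838 bp apart, 1 summit (signal 107) lay 236 bp upstream of ecps-1 and the other (signal 106) 66 bp upstream of atx-2, the worm ataxin-2. The second peak there had a signal of 55.5 in replicate 1 and 54.9 in replicate 2, and the first 76.0 and 35.8. In set-26/tsr-2 the main peak (98.8) lay 215 bp upstream of tsr-2, and a second of 4.91, the weakest in any head-to-head region, lay 4 bp inside it. Both match the same peak of replicate 1, with a signal of 59.9. These regions are named because they are the 2 with more than 1 summit, which was seen in the data.

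The strongest head-to-head peak lay 49 bp upstream of tasp-1, a threonine aspartase, and 736 bp from K01G5.10, annotated by RefSeq as a haloacid dehalogenase-like protein. The optimal list gave it 589, replicate 1 gave 329 and replicate 2 gave 249. The next, of 496, lay between the Hsp70-type heat shock genes F44E5.4 and F44E5.5, which are induced by stress in this species, at 162 bp and 189 bp from their starts. Replicate 1 gave it 295 and replicate 2 gave 199. These genes are close copies of each other, but no 36-base word of the 200 bp window at their summit occurred elsewhere in the genome. Both peaks were above the head-to-head medians of each list, which were 103 in the optimal list, 62.5 in replicate 1 and 45.9 in replicate 2.

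Next came a group of ribosomal protein genes, which encode parts of the cytosolic ribosome. At rpl-20/Y17G9B.5 the signal was 387 (229.6 in replicate 1 and 156 in replicate 2), with the summit 286 bp from rpl-20 and 176 bp from Y17G9B.5. At rpl-15/K11H12.8 it was 357 (204 and 149.6), and at rps-23/dpm-3 257 (156 and 100.2), where dpm-3 encodes a subunit of dolichol-phosphate mannose synthase. Farther down, ska-3/rps-12 had 242, ifet-1/rps-1 214 and rps-19/hsr-9 204. So 6 of the 20 strongest regions had a ribosomal protein gene at one end, each beside a partner that is not one.

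Other strong regions held genes of protein folding and translation. At F54D5.9/dnj-13 the signal reached 268 (replicate 1 gave 164 and replicate 2 gave 93.1), and dnj-13 encodes an Hsp40-type partner of Hsp70. At cct-8/Y55F3AR.2 it was 238 (126 and 107), and CCT-8 is a subunit of the cytosolic chaperonin. At Y22D7AL.10/hsp-60 it was 179 (90.6 and 82.4), with the mitochondrial chaperonin and its co-chaperonin at either end, 813 bp apart, and the summit 194 bp from the start of Y22D7AL.10. Translation factors appeared at iff-2/F54C9.14 (222), iff-2 being the worm eIF5A, and at clsp-1/eef-2 (183), where the summit was 6 bp upstream of the gene for elongation factor 2 and 259 bp from that for claspin. At drr-2/set-16 the signal was 244 (140.3 and 106), and set-16 encodes an MLL-type histone methyltransferase.

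The remaining regions of the strongest 20 were of mixed function. The pair sec-61.B/trap-3 (211) joins genes for a subunit of the protein-conducting channel of the endoplasmic reticulum and for a protein associated with it. The splicing factor gene prp-19 (221) shares its region with K10D2.5, and the summit was 40 bp from the latter. Regions at cux-7/C07H6.2 (208), F56G4.6/wbp-4 (207), gmps-1/cap-2 (183) and atp-5/lmtr-3 (179) complete the list, with cap-2 encoding an actin-capping subunit and atp-5 a subunit of ATP synthase. At gmps-1/cap-2 the summit was almost central, 239 bp from one start and within 1 bp of the midpoint, whereas at atp-5/lmtr-3 it was 303 bp from atp-5 and 16 bp from lmtr-3. All 20 of these peaks were called in both replicates.

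Pairs were then counted by 22 lists of genes, formed from gene symbols and read beside the background of 7.48% of all head-to-head pairs. The lists were chosen with earlier results of these data known, so their shares and intervals are descriptions and not independent support. Where a pair holds a list gene, the peak may belong to its partner, and the signal of the region cannot be assigned to either. Ribosomal protein genes are often arranged in this way: 48 of 82 (58.5%) were in head-to-head pairs, against 17% of all protein-coding genes. Of their 45 pairs 14 were bound (31.1%, 18.2 to 46.6), with a median signal of 172, the lowest being rpl-4/B0041.8 at 75.6. Yet the summit was nearer to the ribosomal gene in 5 of the 14, and none of the 3 pairs with ribosomal genes at both ends, rps-10/rpl-24.1, rps-14/rpl-36 and rpl-39/rps-30, was bound. Of the 25 pairs with a mitochondrial ribosomal gene, 0 were bound. By the rule that a count of 0 allows 3 counts, this allows a share of up to 12%, and the exact interval ends at 13.7%.

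Chaperone genes had 10 of 25 pairs bound (40.0%, 21.1 to 61.3). Besides the 3 above these included hsp-110/rpn-3 (133), where an Hsp110 gene faces a proteasome subunit, and, named after their values were seen, hsp-6/C37H5.5 (93.7), mig-5/cct-1 (103) and T10B5.4/cct-7 (90.0). HSP-6 is the mitochondrial Hsp70, and cct-1 and cct-7 encode chaperonin subunits. The Hsp70-type genes F44E5.4 and F44E5.5 are not on the list, because their symbols do not show the family. Chromatin genes had 7 of 13 pairs bound (53.8%, 25.1 to 80.8), with set-16 first, rpl-7A/set-21 at 165 (95.8 in replicate 1 and 71.7 in replicate 2) and lin-53/nra-2 at 120.5 (65.2 and 49.3). LIN-53 is a histone-binding subunit of several chromatin complexes. A further region with a chromatin gene, vps-51/lin-35 (89.1), is that of the worm retinoblastoma protein, and was picked after its value was seen. The list was formed from symbol prefixes and from lin-35 and lin-53, named singly, and both of these are in bound pairs. Some chromatin genes are off the list, in unbound pairs such as lin-61/bub-1, tpp-2/rbbp-5, R07E5.17/snfc-5 and gtf-2H3/ham-3, or in bound ones such as epc-1/Y111B2A.12. These pairs are examples, and bound and unbound chromatin genes off the list were not counted. The chromatin share thus depends on which genes the list holds. The summit was nearer to the list gene in 3 of 10 chaperone summits and 3 of 8 chromatin summits.

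Genes of vesicle traffic had 8 of 24 pairs bound (33.3%, 15.6 to 55.3), led by sec-61.B/trap-3, sec-15/C28G1.2 (118) and snx-13/snr-1 (108). Nuclear transport had 5 of 18 (27.8%, 9.69 to 53.5), led by imb-1/mfsd-13.1 (103), with importin beta, and by T23H2.3/npp-12 (93.4) and unc-40/npp-7 (87.3), with nuclear pore proteins. Translation factors had 4 of 17 (23.5%, 6.81 to 49.9), the third of them ctf-4/eef-1G at 145. Splicing factors had 4 of 23 (17.4%, 4.95 to 38.8), among them rsp-2/rsp-1 (122, with 55.7 in replicate 1 and 71.2 in replicate 2), whose genes both encode SR proteins. The intervals of vesicle traffic and nuclear transport lie above the background share, and those of translation and splicing factors hold it. The list gene was the nearer one for 2 of 8 vesicle traffic summits and 0 of 5 nuclear transport summits. It was the nearer one for 3 of 4 translation factor and 1 of 4 splicing factor summits.

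Other lists of widely used genes had at most 2 bound pairs each. Aminoacyl-tRNA synthetases had 2 of 11 pairs bound (18.2%, 2.28 to 51.8), ears-2/uncp-18 (108) and aars-1/rga-1 (82.4). Transcription machinery had 2 of 11 (18.2%), ift-43/mdt-26 (161), with a Mediator subunit, and pqn-59/taf-4 (84.7). Proteasome genes had 2 of 20 (10%), hsp-110/rpn-3 and rpn-9/T06D8.9 (76.6), and replication and cell cycle genes 2 of 22 (9.09%), eef-1A.1/rfc-4 (112) and R53.4/psf-1 (89.9). Oxidative phosphorylation had 2 of 31 (6.45%), atp-5/lmtr-3 and mcrs-1/atp-1 (165). The prefixes of that list miss some members, among them nduc-2, in the bound pair Y71H2AM.20/nduc-2 (115), named after its value was seen. They also miss isp-1 and mev-1, whose pairs were unbound. The single pair of the mitochondrial import list was unbound. All of these intervals are wide and hold 7.48%, so a share above, near or below the background could not be told apart in these lists.

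Chemoreceptor genes and the F-box and MATH genes had few bound pairs. Chemoreceptor genes had 1 of 119 (0.840%, 0.0213 to 4.59), rsr-1/sri-5 at 122, in which the partner rsr-1 encodes a splicing-related protein. That list takes symbols by prefix and so also caught 2 pairs with serpin genes. F-box and MATH genes had 1 of 73 (1.37%, 0.0347 to 7.40), erfa-3/math-33 at 93.8, where erfa-3 encodes a translation release factor and the summit was nearer to it. C-type lectins had 0 of 40, which allows up to 7.50%. The intervals of chemoreceptors and of F-box and MATH genes end below 7.48%, and that of lectins, which ends at 8.81%, holds it. Collagens had 1 of 20 bound (5.00%), col-71/Y49F6B.2 with a signal of 69.7. Nuclear hormone receptors had 2 of 15 (13.3%, 1.66 to 40.5), nhr-142/F44E7.9 at 106 and dnj-19/nhr-47 at 77.3. Homeobox genes had 1 of 5 (20%, 0.505 to 71.6), malt-1/ceh-38 at 86.8, and neuropeptides 0 of 7, which allows up to 42.9%. The intervals of these smaller lists hold the background share. In pairs with both genes from one of these families, 0 of 26 chemoreceptor pairs, 0 of 15 F-box and MATH pairs and 0 of 12 lectin pairs were bound.

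Histone genes stood apart in their arrangement. Of 81 histone genes 63 (77.8%) were in head-to-head pairs, and 31 of the 32 pairs had a histone gene at each end. Of the 32, 2 were bound (6.25%, 0.766 to 20.8), a share near the background of 7.48%. They were his-35/his-41 (83.1, with 40.2 in replicate 1 and 34.7 in replicate 2) and wapl-1/htz-1 (76.8, with 49.8 and 33.6), the latter with the gene for the variant H2A.Z. Much of this DNA is repeated, since in 22 of the 31 his- pairs (71.0%) over 10% of the 36-base words of the 200 bp window at the midpoint occurred more than once in the genome. Among bound pairs this held for 7 of 127 (5.51%) and among unbound ones for 141 of 1570 (8.98%). How the authors treated reads from repeated sequence is not given in the sources used here, and the part of repeats in the histone count was not tested. The 3 pairs of hsp-16 genes, small heat shock proteins induced by stress, had 0 bound, and 2 of the 3 were repeated in the same sense. With such windows left out, 120 of 1549 head-to-head regions were bound (7.75%).

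**Figure D5:**
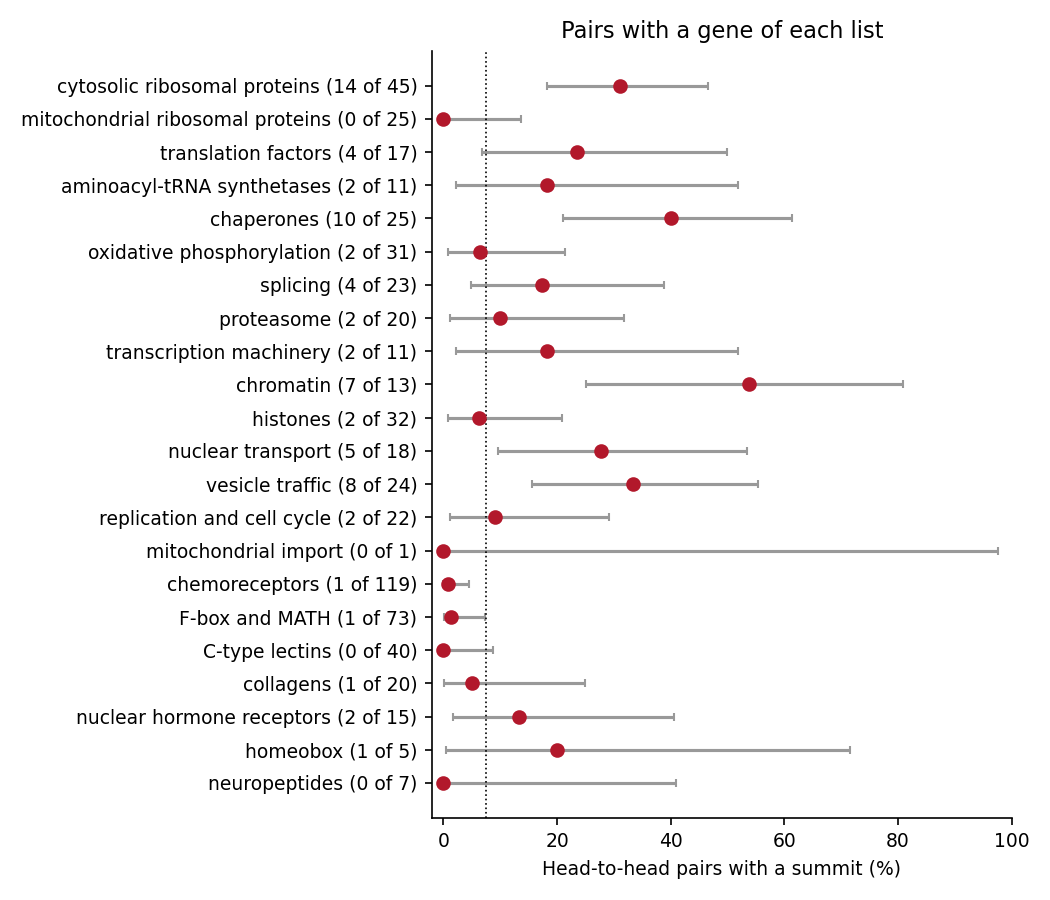
Percentage of head-to-head pairs with a summit (horizontal axis) for pairs that have a gene of each list, with exact 95% intervals as bars and the counts of bound and all pairs beside the names. The broken line is the share of all head-to-head pairs, 7.48%. Chromatin, chaperone, vesicle traffic and ribosomal protein genes lie to the right of it, and chemoreceptors to the left.

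Pairs with a gene of any of the first 15 lists, those of widely used cellular functions, were bound at 19.5% (58 of 298, 15.1 to 24.4). This share too is a description, since the choice of lists was not blind to these data. Pairs with no gene of the 22 lists were bound at 5.61% (64 of 1140, 4.35 to 7.11). The 1.94% of tandem gaps is over all of them, list genes included, so it is not a like share to set beside this one. To see whether list genes outside head-to-head pairs were bound as often, each gene was given a window that began 500 bp before its own start and ended 200 bp after it. A summit lay in that window for 226 of 3394 genes in pairs (6.66%, 5.84 to 7.55) and for 283 of 16579 others (1.71%, 1.52 to 1.92). The window of a paired gene also covers part of its partner's promoter, which raises its share by construction. Genes on no list gave 6.08% (5.21 to 7.05) in pairs and 1.70% (1.49 to 1.93) elsewhere. Chromatin genes gave 6 of 13 in pairs and 4 of 58 elsewhere, and chaperones 9 of 28 and 3 of 31. Ribosomal protein genes gave 27.1% (13 of 48, 15.3 to 41.8) in pairs and 20.6% (7 of 34, 8.70 to 37.9) elsewhere. Histone genes gave 3 of 63 in pairs and 4 of 18 elsewhere.

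Bound and unbound head-to-head regions differed little in length. The median distance between the starts was 467 bp in the 127 bound and 474 bp in the 1570 unbound pairs, and that between the start codons 637 bp and 605 bp. Bound pairs more often had an operon-like arrangement, meaning a further gene on the same strand within 500 bp downstream of either gene. This was so for 69 bound pairs (54.3%, 45.3 to 63.2) and 591 unbound ones (37.6%, 35.2 to 40.1). Both genes had such a follower in 21 bound pairs (16.5%, 10.5 to 24.2) and in 108 unbound ones (6.88%, 5.68 to 8.25). Genes for small RNAs (snoRNA, snRNA, miRNA, tRNA or rRNA) lay in 8 bound regions (6.30%, 2.76 to 12) and 15 unbound ones (0.955%, 0.536 to 1.57). Of the 23 regions with such a gene, 8 were bound (34.8%, 16.4 to 57.3), and these 8 pairs, named after their values were seen, are ska-3/rps-12, tmem-107/rps-26, sec-15/C28G1.2, eef-1A.1/rfc-4, tim-1/Y75B8A.23, smn-1/klp-16, attf-2/F09G2.2 and rpl-4/B0041.8. In 4 of the 8 the small RNA is a snoRNA, in 2 a miRNA, in 1 a snRNA and in 1 a tRNA. Without regions of this kind the bound share was 7.11% (119 of 1674), so few of the bound regions rest on them.

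Base composition moved with binding. The 200 bp window at a head-to-head summit had a median GC content of 43.5% (quartiles 40.0 and 48.0), that at the midpoint of a bound region 36.5% and that at the midpoint of an unbound region 33.0%. Midpoints of tandem gaps had 32.5%, and summits in other promoter windows 46.0%. ChIP-seq recovers fragments unevenly by GC content, and the part of this in the result was not tested.

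The motifs marked in the sequences above were counted in the same windows, on either strand. They were chosen with earlier results of these data known, so their counts are descriptions and not independent support. The windows also differ in GC content, as given above, and the part of this in the counts of any motif was not tested. GAGAGA was found in 28.7% (21.1 to 37.3) of windows at head-to-head summits, in 23.6% (16.5 to 32.0) at midpoints of bound regions, in 12.8% (11.2 to 14.6) at midpoints of unbound regions and in 9.99% at midpoints of tandem gaps. CTGCGTC, as at drr-2/set-16, was found in 10.9% (6.06 to 17.5), 10.2% (5.56 to 16.9), 3.06% (2.26 to 4.03) and 2.58% of these windows. TTCCCGC was found in 6.20%, 6.30%, 2.48% and 2.10%. The 3 motifs were more frequent in bound regions than in unbound ones whether the window was set by the summit or by the midpoint, though for TTCCCGC the intervals of summits (2.72 to 11.9) and of unbound midpoints (1.77 to 3.38) overlap. GGGCGG, a GC-rich word, was in 12.4% (7.26 to 19.4) of summit windows but in 5.51% of bound midpoints and 5.92% of unbound ones.

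TATAAA was less frequent in bound regions than in unbound ones. This word, the core of the TATA box, was in 11.6% (6.66 to 18.5) of summit windows and 13.4% (8.0 to 20.6) of bound midpoints, against 28.5% (26.3 to 30.8) of unbound midpoints and 29.2% of tandem midpoints. GATAAG, the word read by GATA factors of the intestine, was in 4.65% (1.73 to 9.85) of summit windows and 3.94% (1.29 to 8.95) of bound midpoints, against 10.2% (8.74 to 11.8) of unbound ones, and these intervals overlap slightly. Runs of T were in 61.2% of summit windows, 74.8% of bound midpoints and 71.3% of unbound ones. TTCNNGAA was in 17.1% (11.0 to 24.7) of head-to-head summit windows and 12.2% (10.6 to 13.9) of unbound midpoints, which overlap, and in 8.40% (5.85 to 11.6) of the summits of other promoter windows. CACGTG was in 4.65% of head-to-head summit windows and 3.95% of unbound midpoints, and in 9.67% (6.93 to 13.0) of the other promoter summits. Summits of other promoter windows otherwise had CTGCGTC at 15.3% (11.9 to 19.2) and GAGAGA at 35.1% (30.4 to 40.1), so that neither was shown to be particular to head-to-head regions.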

How the data were processed

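ChIP-seq peaks of LET-526::EGFP were analysed for 2 biological replicates of 1 group. The deposited files are peak lists in narrowPeak order on ce11, per the labels. The signal of a peak is the value deposited by the authors on the scale of each list, and the score is the deposited IDR score of at most 1000. In the optimal list the lowest score was 830. Of the peaks of its ranked list at or above that score, 125 were not in the optimal list, and 0 of them lay in a head-to-head region. Which aligner and peak caller were used is not given in the sources used here. Read depth is unknown, and intervals cover counting error over regions. The ranked list of replicate against replicate was not used here.

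A summit is the peak start plus the summit offset. Genes were those of Ensembl release 115 on WBcel235. Each peak ended within its chromosome, and 17106 of 19533 genes matched by symbol (87.6%) had the same start and end in RefSeq, whose genome gave the sequences. Consecutive genes were taken in order of leftmost coordinate. Shares have exact 95% Clopper-Pearson intervals, and a count of 0 allows 3 counts of the total. There was no comparison between samples and no test. Peaks were matched to a replicate's ranked list by an overlap of 1 bp, and the overlapping peak with the nearest summit was taken. Finding summits in regions was tested on simulated data. Python 3.11.15, numpy 2.4.6, pandas 2.3.3, scipy 1.17.1 and matplotlib 3.10.9 were used.

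Genes were named from the 20 strongest bound regions, from up to 3 bound pairs of each list and from pairs with both genes in a list. Regions, lists and motifs were chosen with earlier results of these data known. The alternatives were other peak lists, each replicate alone, stronger peaks, other ends, spacings and neighbour rules, and regions without small RNA genes.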

Additional observations from a re-analysis of the deposited data

How the results depend on the processing

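Of 69 other settings, 47 moved the value by less than its interval and 22 by more. With a replicate left out, the other's own list gave bound shares of 3.06% to 4.54% in head-to-head regions, 0.805% to 1.01% in tandem gaps and 0.790% to 0.847% in convergent gaps. It gave 3.43 to 5.14 summits per 100 kb of head-to-head region, and put 92.3% to 93.6% of summits between the starts. Peaks above the median signal gave 5.24%, 1.21% and 0.847% for the 3 arrangements, and 5.94 summits per 100 kb. The ranked list with no threshold, chosen after the data were seen, gave 61.5%, 52.9% and 48.8%. Without regions holding a small RNA gene the convergent share was 0.975%. Summits per 100 kb of head-to-head region were 13.3 with 0 bp added at each end, 5.37 with 500 bp, 11.4 with starts at most 500 bp apart and 6.01 with starts at most 2000 bp apart. The share nearer to the plus-strand start ran from 58.0% to 67.1%, and the share above the list median from 61.5% to 71.4%. Over the thresholded lists and settings that both arrangements share, the ratio of head-to-head to tandem shares ran from 3.59 to 4.50, and that of head-to-head to convergent shares from 3.61 to 7.29. No paired analysis was possible because there was 1 group. Limits are the single group, the unknown depth, the annotated starts, which need not be the places where transcription begins, and intervals that cover counting error over regions and not the spread between worms.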
